A study of Mus musculus with 7 samples.

Results

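The 10 genes described here are the 4 tissue inhibitors of metalloproteinases (Timp1, Timp2, Timp3 and Timp4) and 6 of the ADAMTS proteases (Adamts1, Adamts2, Adamts4, Adamts5, Adamts12 and Adamts14) of the mouse. They were taken by gene symbol, and each symbol matched 1 gene of 44818 features in the data. All 10 passed the filter on low counts, as did 16028 features in all. RNA was sequenced from hindlimb tendon of mice of C57BL/6 background in 3 groups. The tenotomy group (2 libraries) was the cut Achilles tendon of mice that also had a burn of the back, taken 3 weeks after both injuries. The burn was given with an aluminium block at 60 °C for 18 s over 30% of the body surface, and injured mice received buprenorphine against pain. The contralateral group (3 libraries) was the uncut tendon on the opposite side of mice with the same burn and tenotomy, at the same time. The uninjured group (2 libraries) came from wild-type mice with neither burn nor tenotomy. The tissue of an operated leg ran from the calf muscle to the heel bone. The title of the series names the kinase TAK1 and tissue regeneration, but the labels give none of these libraries a transgene or a TAK1 inhibitor. They give no age or sex, do not say whether a tenotomy and a contralateral library came from 1 mouse, and do not say whether libraries of a group came from separate animals. P-values therefore measure the spread between these libraries, which may be technical.

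ADAMTS proteases are secreted zinc enzymes that cut proteins of the extracellular matrix. Adamts1, Adamts4 and Adamts5 belong to the branch that cuts the large proteoglycans aggrecan and versican, Adamts2 and Adamts14 remove the amino-terminal propeptide from fibrillar procollagens, and Adamts12 can cut the cartilage protein COMP. TIMPs bind the active site of matrix metalloproteinases (MMPs). Timp3 is held in the matrix and is the TIMP that also blocks aggrecan-cutting ADAMTS enzymes and several ADAM proteases. In tendon, these enzymes and inhibitors take part in turnover of collagen and proteoglycan after injury.

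Sequence before the transcription start is shown for 4 of the 6 genes that differed between cut and contralateral tendon, to set 3 that were higher at the cut (Timp1, Adamts2 and Adamts12) beside the 1 that was lower (Timp4). RefSeq promoters of the mouse build GRCm38.p6 were matched for 8 of the 10 genes, and Adamts4 and Adamts5 had no entry. Each sequence is the 250 bases before the start, 5′ to 3′ on the strand of the gene. Capitals mark matches to motifs. A GC box was searched as GGGCGG on both strands. A CCAAT box was searched by the letters of its name on both strands. A TATA box was searched as TATAAA on the strand of the gene only. An AP-1 site was searched as TGANTCA, which reads the same on both strands.
Timp1, chrX:20869916-20870165, plus strand: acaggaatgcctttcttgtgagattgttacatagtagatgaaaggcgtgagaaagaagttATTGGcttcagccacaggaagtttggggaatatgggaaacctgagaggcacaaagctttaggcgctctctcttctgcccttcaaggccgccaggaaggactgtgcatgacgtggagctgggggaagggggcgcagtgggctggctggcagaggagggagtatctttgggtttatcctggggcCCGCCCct
Timp4, chr6:115252206-115252455, minus strand: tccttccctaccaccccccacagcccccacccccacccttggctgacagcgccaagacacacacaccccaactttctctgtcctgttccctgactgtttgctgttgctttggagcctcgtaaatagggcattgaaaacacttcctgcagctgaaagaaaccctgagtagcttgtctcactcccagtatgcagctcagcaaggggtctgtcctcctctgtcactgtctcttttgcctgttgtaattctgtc
Adamts2, chr11:50601835-50602084, plus strand: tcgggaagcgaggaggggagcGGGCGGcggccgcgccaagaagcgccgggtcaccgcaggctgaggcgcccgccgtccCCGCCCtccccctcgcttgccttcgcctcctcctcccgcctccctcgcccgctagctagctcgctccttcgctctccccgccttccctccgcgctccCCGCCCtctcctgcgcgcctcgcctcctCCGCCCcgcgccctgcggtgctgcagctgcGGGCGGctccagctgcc
Adamts12, chr15:11064523-11064772, plus strand: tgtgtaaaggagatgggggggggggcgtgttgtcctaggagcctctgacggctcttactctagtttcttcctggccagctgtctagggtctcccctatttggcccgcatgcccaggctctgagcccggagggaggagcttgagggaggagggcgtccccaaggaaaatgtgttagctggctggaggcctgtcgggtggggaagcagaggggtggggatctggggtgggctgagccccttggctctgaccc

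The Adamts2 promoter held 5 GC boxes and had a GC content of 78.0%, against a median of 52.4% over 32851 promoters of the same length. Timp1 had 1 GC box, starting at position -8 from the start, and 1 CCAAT box at position -190. The windows of Timp4 (53.6% GC) and Adamts12 (63.2% GC) held none of the 4 motifs. Among the windows not shown, that of Adamts14 (76.4% GC) held 6 GC boxes, Adamts1 held 3, and Timp2 and Timp3 held 1 each. Of these, only Timp2 was among the genes that differed between cut and contralateral tendon. The Timp2 window also held 1 CCAAT box, at position -162. A GC box was found in 32.7% of all promoters, a CCAAT box in 33.8%, a TATA box in 7.59% and the AP-1 letters in 6.75%. None of the 8 windows held the AP-1 letters, and only that of Adamts1 held a TATA box, at position -32. These are letter matches and not measured binding sites.

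Library totals ranged from 25927171 to 36725106 estimated counts. A set of 5 features took 76.4% to 81.4% of them, which left 4934057 to 8375626 counts per library for all other features. Markers of tendon listed for this work (6 of 6 detected, such as Scx and Tnmd) summed to 152.8 to 251.8 CPM (counts scaled to a common library total) in contralateral, 318.3 and 321.8 in tenotomy and 300.2 and 236.0 in uninjured libraries. Most of the tendon sum was Fmod and Thbs4, with contralateral means of 101.1 and 79.05 CPM and tenotomy means of 107.3 and 166.9. Scx and Tnmd had contralateral means of 0.563 and 7.51 CPM and tenotomy means of 1.53 and 27.9. Markers of other cell types differed between libraries as well. The 15 skeletal muscle markers, all of them detected, summed to 9538 to 12460 CPM in contralateral libraries, 1033 and 1035 in tenotomy libraries, and 1284 and 9181 in uninjured replicates 1 and 2. The 8 macrophage markers, all detected, summed to 27.7 to 33.8 CPM in contralateral, 119.8 and 122.7 in tenotomy, and 124.1 and 34.3 in the uninjured libraries. The 7 cartilage markers, all detected, summed to 3.56 to 4.90 CPM in contralateral, 244.6 and 248.6 in tenotomy, and 75.1 and 5.78 in the uninjured libraries. In these bulk samples, more cells of a type and more RNA per cell cannot be told apart.

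The uninjured libraries stood apart from each other in the 10 genes, as they did over all genes tested. Over their log2 CPM, the Euclidean distance between the uninjured libraries was 4.86. Uninjured replicate 1 lay 0.89 to 1.01 from the tenotomy libraries, which lay 0.50 from each other. Uninjured replicate 2 lay 1.80 to 2.27 from the contralateral libraries, which lay 0.70 to 2.07 from each other. Over all genes tested, the uninjured libraries lay 114 apart. Replicate 1 lay 59.6 and 61.1 from the tenotomy libraries, themselves 54.5 apart. Replicate 2 lay 64.5 to 67.4 from the contralateral libraries, themselves 56.7 to 65.2 apart. The split was thus not particular to the 10 genes. Calls among the 10 genes that rest on the uninjured group are therefore also given without each of its libraries.

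The first comparison asked how the 10 genes differed between the cut tendon and the contralateral tendon. Of the 10, 5 were higher at the tenotomy site (Timp1, Timp2, Adamts2, Adamts4 and Adamts12) and 1 was lower (Timp4) at an adjusted p-value under 0.05 in edgeR's quasi-likelihood test, fitted to all 7 libraries. Over all 16028 genes tested, 13.6% were called higher and 15.4% lower, or 29% in either direction. The libraries of the groups did not overlap for 7 of the 10 genes in the upward and 2 in the downward direction, where 31.9% and 31.8% of all genes did not overlap. The median log2 fold change of the 10 was 0.85, and that of all genes was -0.001. Timp1 and Adamts4 passed the filter on low counts through the libraries in which they were high, so these counts describe the 10 genes only.

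**Figure D1:**
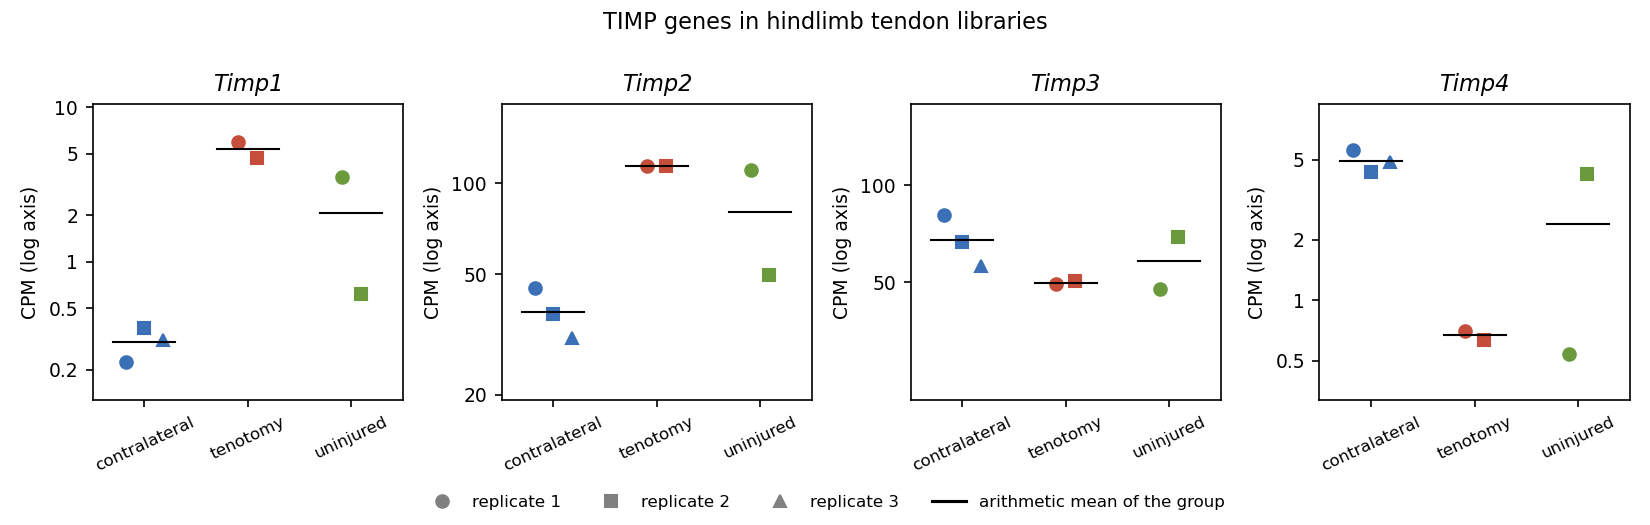
Level of each TIMP gene in scaled counts (CPM, log axis, a different range in each panel) by group. Each point is 1 library, its shape is the replicate number, which pairs no libraries, and the line is the arithmetic mean of the group. Timp1 and Timp2 sit higher in both tenotomy libraries than in every contralateral library, Timp4 sits lower, and the uninjured libraries lie far apart.

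Timp1 (ENSMUSG00000001131.11, chromosome X, 20870166 to 20874735, plus strand, GRCm38), an inducible inhibitor of most MMPs, had the largest fold change of the 10. It was at 0.225, 0.370 and 0.309 CPM in contralateral libraries 1 to 3 and at 5.96 and 4.73 CPM in the tenotomy libraries. It was thus near the limit of detection in contralateral tendon, with 6, 13 and 10 counts, against 219 and 142 counts at the cut. Timp1 thus rose, with a log2 ratio of 4.11 ± 0.63 (SE) and an adjusted p of 0.0167 by edgeR. From summed counts, the ratio was 17.6 with a 95% interval of 12.0 to 26.6 that covers counting error only. The macrophage and muscle marker sums given above differed between the same libraries, and their part in this result was not tested.

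Timp2 (ENSMUSG00000017466.9, chromosome 11, 118301069 to 118355740, minus strand), which both inhibits MMPs and helps activate pro-MMP2 at the cell surface, was at 45.1, 37.1 and 30.8 CPM in contralateral and 113.9 and 114.3 CPM in tenotomy libraries. Both tenotomy libraries lay well above every contralateral library. The mean rose from 37.7 CPM ± 7.14 (SD, n = 3) to 114.1 ± 0.274 (SD, n = 2), which is a log2 ratio of 1.60 ± 0.33 (SE) with an adjusted p of 0.0171 by edgeR.

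Timp3 (ENSMUSG00000020044.13, chromosome 10, 86300372 to 86349506, plus strand), the matrix-bound inhibitor of ADAMTS enzymes, was at 80.8, 66.6 and 56.1 CPM in contralateral and 49.2 and 50.4 CPM in tenotomy libraries. The tenotomy libraries were the lowest, close to contralateral replicate 3. Its log2 ratio of -0.45 ± 0.24 (SE) did not pass, with an adjusted p of 0.195 by edgeR. Timp3 did pass when only the 5 libraries of these groups were fitted (-0.45, adjusted p of 0.0206 by edgeR).

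Timp4 (ENSMUSG00000030317.8, chromosome 6, 115241892 to 115252205, minus strand), the TIMP known for expression in heart, skeletal muscle and fat, was at 5.62, 4.35 and 4.89 CPM in contralateral and 0.707 and 0.633 CPM in tenotomy libraries. The groups did not overlap, with 150 to 158 counts in each contralateral library against 26 and 19. Timp4 had a log2 ratio of -2.87 ± 0.71 (SE) and an adjusted p of 0.0237 by edgeR. The skeletal muscle sum was lower in the same tenotomy libraries, at 1033 and 1035 against at least 9538 CPM, and the 7 adipocyte markers, all detected, summed to 114.1 CPM in each tenotomy library against 272.4 to 334.7 in contralateral libraries. Their part in the fall of Timp4 was not tested.

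Timp1, Timp3 and Timp4 each lie inside a synapsin gene on the opposite strand, namely Syn1, Syn3 and Syn2. Annotated exons of Timp3 shared 1733 bases with exons of Syn3, those of Timp4 shared 90 bases with Syn2, and those of Timp1 shared none with Syn1. The labels do not say whether the kit kept the strand, so reads from shared bases cannot be assigned with certainty. Syn3 was at 0.533 to 1.42 CPM over the 7 libraries, and Timp3 was at 47.7 to 80.8. Syn2 was at 0.712, 0.654 and 0.619 CPM in contralateral and 0.245 and 0.333 CPM in tenotomy libraries, and it fell like Timp4 (log2 ratio -1.20, adjusted p of 0.0252 by edgeR). Timp4 was at 0.707 and 0.633 CPM in the same tenotomy libraries, and the part of the shared bases in either value was not tested.

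**Figure D2:**
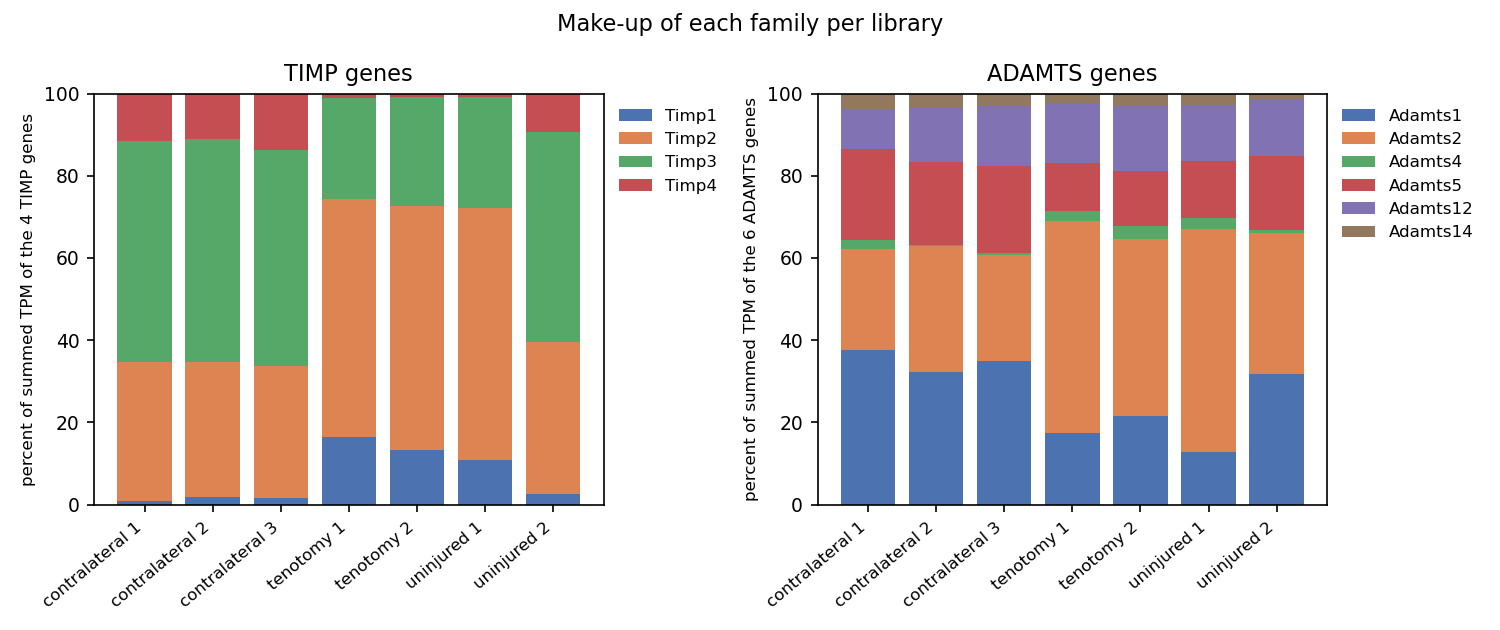
Share of each gene in the summed length-corrected abundance (TPM) of its family, in percent, for the 4 TIMP genes (left) and the 6 ADAMTS genes (right), with 1 bar per library. Timp3 makes up over 50% of the TIMP bars in contralateral libraries and uninjured replicate 2, and Timp2 over 57% in tenotomy libraries and uninjured replicate 1.

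The make-up of the TIMP family was compared per length, as TPM summed over the transcripts of a gene. In contralateral libraries the order was Timp3 (53.5% ± 0.740 of the summed TIMP TPM, SD, n = 3), Timp2 (32.9% ± 0.888), Timp4 (12.1% ± 1.35) and Timp1 (1.48% ± 0.506). In tenotomy libraries it was Timp2 (58.6% ± 1.05, SD, n = 2), Timp3 (25.6% ± 1.37), Timp1 (14.9% ± 2.35) and Timp4 (0.974% ± 0.071). No 2 neighbours in either order overlapped over the libraries of the group. Timp3, the main TIMP transcript of contralateral tendon, and Timp2 thus exchanged places, as did Timp4 and Timp1. Uninjured replicate 1 had shares of 61.3% for Timp2 and 27.0% for Timp3, just outside the tenotomy ranges, whereas uninjured replicate 2 had 36.9% and 51.0%. The shares are given as a description, since a one-sided exact permutation test of 3 against 2 libraries allows no p under 0.1.

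**Figure D3:**
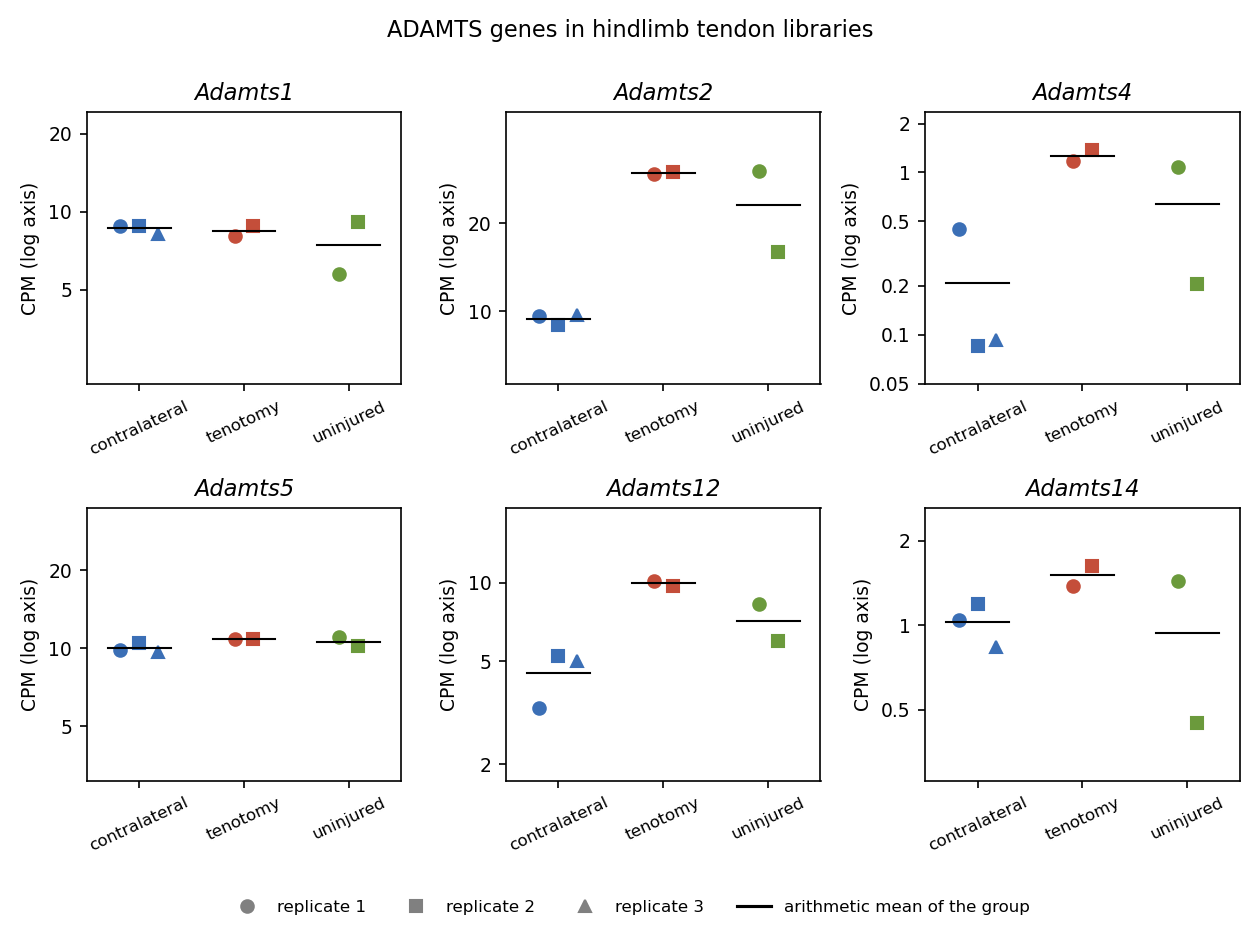
Level of each ADAMTS gene in CPM (log axis, a different range in each panel) by group, with 1 point per library, shapes for replicate numbers and lines for arithmetic means of the groups. Adamts2, Adamts4 and Adamts12 are higher in both tenotomy libraries than in every contralateral library, and Adamts1 and Adamts5 lie close together in these groups.

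Among proteases of procollagen, Adamts2 (ENSMUSG00000036545.8, chromosome 11, 50602084 to 50807573, plus strand) was at 9.63, 8.99 and 9.74 CPM in contralateral and 29.6 and 29.9 CPM in tenotomy libraries. Replicates of a group differed by less than 1 CPM, and the groups were about 20 CPM apart. Adamts2 rose at a log2 ratio of 1.65 ± 0.25 (SE), with an adjusted p of 0.0167 by edgeR. Adamts14 (ENSMUSG00000059901.12, chromosome 10, 61197112 to 61273438, minus strand), with the same activity, was at 1.05, 1.195 and 0.835 CPM in contralateral and 1.39 and 1.63 CPM in tenotomy libraries. Both tenotomy values were higher, but the log2 ratio of 0.55 ± 0.40 (SE) did not pass, with an adjusted p of 0.335 by edgeR. Adamts3, the remaining gene of this branch and no member of the 10, had a log2 ratio of 0.65 with an adjusted p of 0.232 by edgeR. The substrates of these enzymes were among the genes that rose at the cut: Col1a1 was at 373.2 to 478.1 CPM in contralateral and 2565 and 2583 CPM in tenotomy libraries.

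Among proteases of aggrecan and versican, Adamts4 (ENSMUSG00000006403.13, chromosome 1, 171250421 to 171260637, plus strand) was scarce. It was at 0.450, 0.0854 and 0.0928 CPM in contralateral libraries, from 12, 3 and 3 counts, and at 1.17 and 1.37 CPM in tenotomy libraries, from 43 and 41 counts. The tenotomy libraries were higher than each contralateral library, of which replicate 1 stood above the others. Adamts4 rose, its log2 ratio being 2.67 ± 0.74 (SE) with an adjusted p of 0.0336 by edgeR. The ratio of summed counts was 6.58 (95% interval 3.92 to 11.6, counting error only), and 14.2 (6.24 to 39.6) without contralateral replicate 1.

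Adamts5 (ENSMUSG00000022894.6, chromosome 16, 85856173 to 85901828, minus strand), a main aggrecan-cutting enzyme of mouse cartilage, was the steadiest of the 10. It was at 9.86, 10.5 and 9.65 CPM in contralateral, 10.9 and 10.9 in tenotomy and 11.1 and 10.2 CPM in uninjured libraries. The log2 ratio of cut over contralateral tendon was 0.12 ± 0.13 (SE) and did not pass, with an adjusted p of 0.545 by edgeR. Adamts1 (ENSMUSG00000022893.14, chromosome 16, 85793827 to 85803113, minus strand), next to Adamts5 on the chromosome, was at 8.85, 8.82 and 8.20 CPM in contralateral and 8.05 and 8.80 CPM in tenotomy libraries. The groups overlapped, and the log2 ratio was -0.03 ± 0.20 (SE) with an adjusted p of 0.922 by edgeR. Its direction turned with the scaling, being 0.08 with upper quartile scaling, which moved the median of all genes to 0.11. The proteoglycan substrates of these enzymes differed between the same libraries: Vcan was at 10.02 to 15.2 CPM in contralateral and 36.4 and 38.0 CPM in tenotomy libraries, and Acan at 0.675 to 1.11 and at 80.8 and 86.1 CPM.

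Adamts12 (ENSMUSG00000047497.10, chromosome 15, 11064790 to 11349231, plus strand) was at 3.30, 5.21 and 4.98 CPM in contralateral and 10.2 and 9.73 CPM in tenotomy libraries. Both tenotomy libraries exceeded every contralateral library, of which replicate 1 was the lowest. Adamts12 rose with a log2 ratio of 1.14 ± 0.23 (SE) and an adjusted p of 0.0167 by edgeR. Comp, a substrate of this enzyme, had a log2 ratio of 0.81 that did not pass, with an adjusted p of 0.104 by edgeR.

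Per length, the leading ADAMTS gene also differed between the groups. In contralateral libraries Adamts1 was first with 34.96% ± 2.67 (SD, n = 3) of the summed TPM of the 6 genes, followed by Adamts2 with 27.0% ± 3.17, Adamts5 with 21.2% ± 1.08, Adamts12 with 12.4% ± 2.40, Adamts14 with 3.49% ± 0.292 and Adamts4 with 0.930% ± 0.941. The ranges of neighbours in that order did not overlap over the contralateral libraries. In tenotomy libraries Adamts2 was first with 47.3% ± 6.09 (SD, n = 2), Adamts1 had 19.5% ± 3.02, Adamts12 15.1% ± 0.846 and Adamts5 12.6% ± 1.11, while Adamts4 and Adamts14, with 2.84% ± 0.558 and 2.77% ± 0.548, could not be ordered. The ratio of summed TIMP TPM to summed ADAMTS TPM was 7.50, 5.05 and 5.37 in contralateral, 5.03 and 5.61 in tenotomy and 5.18 and 5.43 in uninjured libraries, so the groups overlapped in it.

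These calls depended on the libraries in the fit. The uninjured libraries, which stood far apart, enter the error of the fit of all 7. When any 1 tenotomy or contralateral library was left out of it, 0 of the 10 genes and 0% of all genes passed (edgeR adjusted p of the 6 called genes 0.0501 to 0.155, with 4538 to 6148 genes at an unadjusted p under 0.05). In the fit of the 5 tenotomy and contralateral libraries alone, the count was 5 higher and 2 lower, Timp3 being the addition, against 22.1% and 24.1% of all genes. With each of these 5 libraries left out in turn, an alternative chosen after seeing the data, Timp1, Timp2, Adamts2, Adamts4, Adamts12 and Timp4 passed in all 5 fits (edgeR adjusted p of at most 0.00635) and Timp3 in 3 of 5. In 2 of these fits the tenotomy group was 1 library, assumed to vary like the contralateral libraries. Of all genes, 48.4%, 41.2% and 44.8% passed without contralateral replicates 1, 2 and 3, and 32.1% and 33% without tenotomy replicates 1 and 2. Without uninjured replicate 1, 5 of the 10 were higher and 2 lower, against 21% and 22% of all genes. Without uninjured replicate 2, the counts were the same, against 21.2% and 22.3%.

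**Figure D4:**
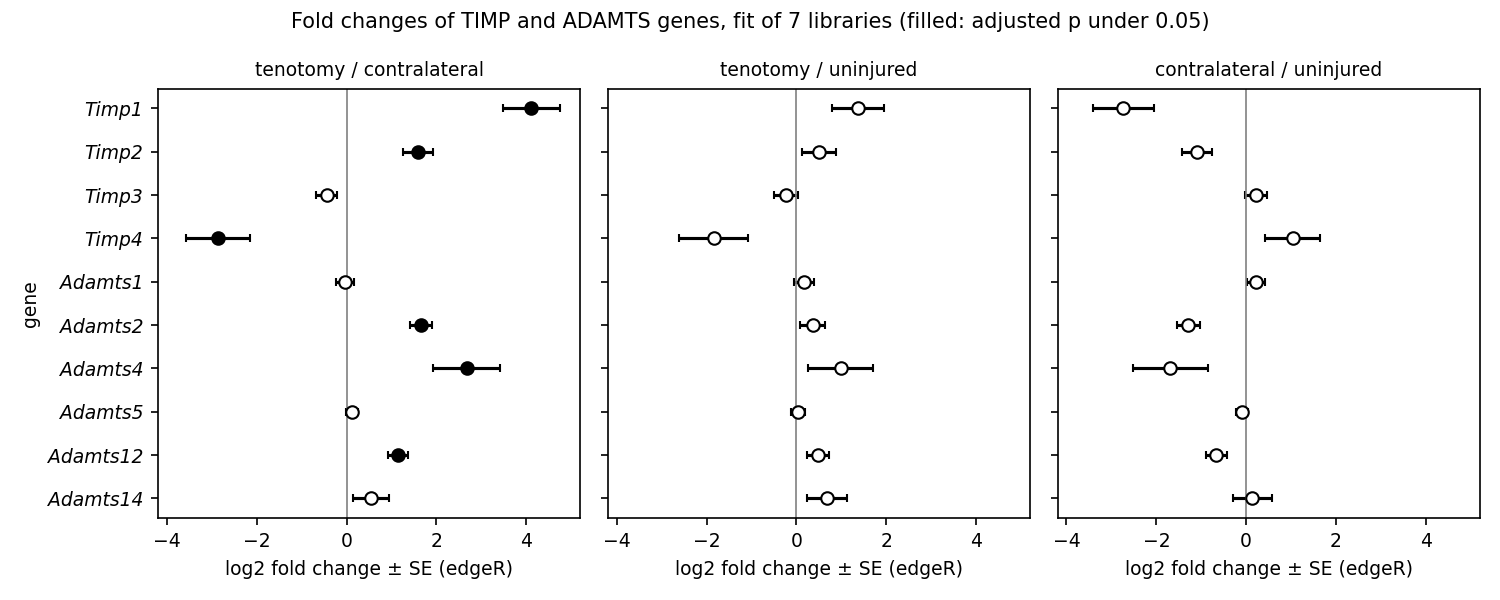
Log2 fold changes of the 10 genes with SE bars in the 3 comparisons, from 1 edgeR fit of 7 libraries, with filled points at an adjusted p under 0.05. In tenotomy against contralateral, 6 points are filled, and none is filled in the comparisons with the uninjured group.

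The second comparison set the cut tendon against tendon of uninjured mice. None of the 10 genes passed in the edgeR fit of all libraries, as none of the 16028 genes did (0%). At an unadjusted p under 0.05 there were 2 of the 10, Timp1 and Timp4, where 10.9% of all genes were. DESeq2 gave an adjusted p to 6 of the 10 and called none of these, with 0.905% of all genes called. It gave no adjusted p to Timp1, Timp4, Adamts4 and Adamts14, nor to 13051 of the 16028 genes, which count as not called in that share. Limma-voom called 0 of the 10, with 0% of all genes called. Timp1 was at 3.52 CPM in uninjured replicate 1 and 0.619 in replicate 2, both below the tenotomy values of 5.96 and 4.73 CPM (log2 ratio 1.38 ± 0.58 SE, adjusted p of 0.458 by edgeR). Timp4 was at 0.539 CPM in uninjured replicate 1, below the tenotomy libraries, and at 4.27 in replicate 2, above them (log2 ratio -1.84 ± 0.77 SE, adjusted p of 0.458 by edgeR). The libraries of the groups did not overlap for Timp1, Timp2, Adamts4 and Adamts12 in the upward direction and for 0 of the 10 in the downward one, where 20.1% and 20.4% of all genes did not. This comparison and the first share the tenotomy libraries.

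Timp2 was at 110.9 and 49.9 CPM and Timp3 at 47.7 and 69.0 CPM in uninjured replicates 1 and 2, and both genes had replicate 1 beside the tenotomy libraries. Adamts2 was at 30.1 and 16.0 CPM, Adamts4 at 1.08 and 0.207, Adamts12 at 8.30 and 5.99 and Adamts14 at 1.44 and 0.447. For each of these, replicate 1 was the higher. Adamts1 was at 5.75 and 9.12 CPM, with replicate 1 below every other library of the study. Without uninjured replicate 1, where replicate 2 stood alone for the group and was assumed to vary like the other groups, 6 of the 10 were called higher at the cut (Timp1, Timp2, Adamts2, Adamts4, Adamts12 and Adamts14) and Timp4 lower, against 11.4% and 13.7% of all genes. Without uninjured replicate 2, 0 of the 10 were called, against 0.083% of all genes in either direction, and 957 genes (5.67%) had an unadjusted p under 0.05. The marker sums also differed between the uninjured libraries, that of muscle being lower in replicate 1 and those of macrophages and cartilage higher. Their part in these values was not tested.

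The last comparison set the uncut tendon of injured mice against that of the uninjured group. None of the 10 genes and none of the 16028 (0%) passed in the edgeR fit of all libraries. At an unadjusted p under 0.05 there were 4 of the 10, all lower in contralateral tendon (Timp1, Timp2, Adamts2 and Adamts12), where 19.2% of all genes were, in either direction. The libraries of the groups did not overlap for these 4 in the downward and for Timp4 in the upward direction, where 16.6% and 18.9% of all genes did not. DESeq2 gave an adjusted p to 7 of the 10, not to Timp1, Adamts4 and Adamts14, and called Adamts2, with 1.39% of all genes called and 9634 genes without an adjusted p. Limma-voom called 0 of the 10, with 0% of all genes called.

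Adamts2, the procollagen protease, had the smallest unadjusted p of the 10 in this comparison (0.00111), with uninjured libraries at 30.1 and 16.0 CPM against 8.99 to 9.74 in contralateral tendon. The log2 ratio of contralateral over uninjured was -1.28 ± 0.25 (SE), with an adjusted p of 0.215 by edgeR. It passed without uninjured replicate 1 (-0.76, adjusted p of 0.0168 by edgeR), where 0.306% of all genes were higher and 0.311% lower. It also passed without uninjured replicate 2 (-1.67, adjusted p of 8.69e-07 by edgeR), where 16.9% were higher and 15% lower, and with DESeq2 (adjusted p of 0.0046). Where low counts were not filtered it passed as well, beside Timp1 (adjusted p of 0.0216 and 0.0175 by edgeR), and 0.835% of all genes were called lower. Over 17 alternatives the adjusted p ranged from 8.69e-07 to 0.451, and 5 passed. One of these was the fit with the numbering series of the sample titles as a covariate (0.000523), in which 8.39% of all genes were higher and 7% lower. Uninjured replicate 2 is alone in its series, so in that fit the uninjured group rests on replicate 1, as it does without replicate 2. Contralateral and uninjured libraries share no series, so the covariate fit links these groups only through tenotomy replicates 1 and 2. The procollagen gene Col1a1 had lower values in contralateral tendon too and did not pass either, at 2357 and 2214 CPM in uninjured replicates 1 and 2 against 373.2 to 478.1 CPM (log2 ratio -2.38, adjusted p of 0.128 by edgeR).

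For Timp1, Timp2, Timp4 and Adamts12 the difference was larger against uninjured replicate 1 than against replicate 2. Without it, the log2 fold changes of contralateral over uninjured were -1.002 for Timp1 (edgeR adjusted p = 0.406), -0.41 for Timp2 (0.422), 0.21 for Timp4 (0.731) and -0.40 for Adamts12 (0.532). Without replicate 2 they were -3.50 (edgeR adjusted p = 2.64e-06), -1.56 (2.09e-05), 3.18 (6.17e-06) and -0.87 (0.00568). The contralateral libraries are shared by this comparison and the first.

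**Figure D5:**
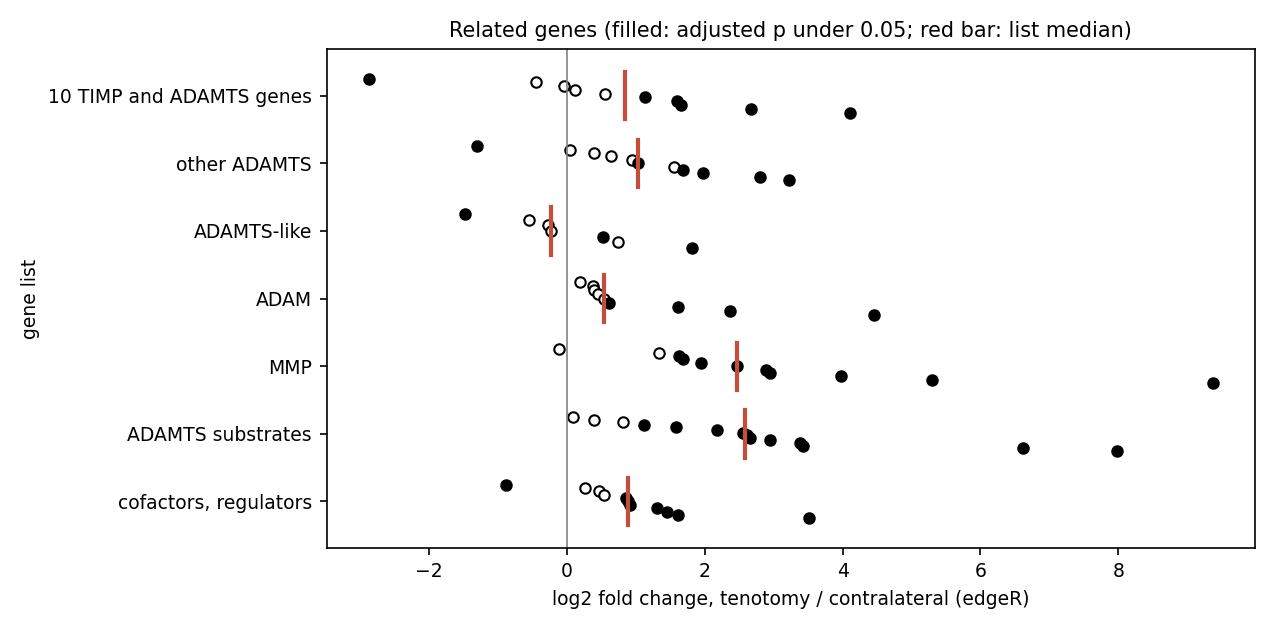
Log2 fold change of tenotomy over contralateral for the 10 genes and 6 lists of related genes. Each point is 1 gene, filled at an adjusted p under 0.05, and the red bar is the median of the list. The medians of the MMP list (2.46) and the substrate list (2.58) lie farthest to the right.

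Related genes were counted in the same comparison of cut against contralateral tendon, from lists made for this work, and over all genes 13.6% were called higher and 15.4% lower. Of 13 other ADAMTS genes, 11 were tested, 5 rose and 1 fell. Adamts16 and Adamts17 rose by 3.22 and 2.81 on the log2 scale, and Adamts7, which like Adamts12 can cut COMP, rose by 1.98, while Adamts8 fell by 1.30 (edgeR adjusted p 0.0167 to 0.0172). Of 7 ADAMTS-like genes, which resemble ADAMTS enzymes but lack the protease domain, 2 rose (Adamtsl1 by 1.82 and Adamtsl3 by 0.53) and 1 fell (Papln by 1.48). Of 15 substrates, 14 were tested and 11 rose, the largest changes being those of Col2a1 (7.98), Acan (6.61) and Tfpi2 (3.43). Col2a1 and Acan are also among the cartilage markers summed above, so the 2 lists are not separate observations. The list medians were 1.03, -0.23 and 2.58, beside -0.001 over all genes.

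Among the MMP and ADAM lists, whose enzymes include targets of TIMPs, the genes that passed were higher at the cut, where 13.6% of all genes were called higher and 15.4% lower. Of 13 MMP genes, 11 were tested, 9 rose and 0 fell, among them Mmp13 (9.37), Mmp3 (5.30) and the membrane enzyme Mmp14 (3.97). Contralateral libraries held 0 to 3 counts of Mmp13, so its fitted change is no bound. Of 9 ADAM genes, 4 rose, among them Adam12 (4.46), Adam8 (2.37) and Adam19 (1.61), and 0 fell. Of 12 cofactors and regulators, 11 were tested, 7 rose and 1 fell, beside the same shares of all genes. Fibronectin (Fn1), which can bind ADAMTS4, rose by 3.52, the proprotein convertase gene Pcsk5 by 1.61, and Pofut2, which adds fucose to the thrombospondin repeats of ADAMTS proteins, by 1.46. Pcsk6, another convertase, fell by 0.88. The clearance receptor Lrp1, which takes up Timp3 and ADAMTS enzymes, rose by 0.85.

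Genes with the most similar pattern were found for the most abundant TIMP and ADAMTS gene by mean log2 CPM. Over the 7 libraries and 2017 genes, Timp2 was most like Eef1a1, Fat4 and Arf4 (Pearson r 0.9986, 0.9985 and 0.9978). Adamts2 was most like Plxna1, Pdgfrb and Pxdn (0.9971, 0.9942 and 0.9936). In both genes uninjured replicate 1 lies with the tenotomy libraries, so the 7 points are few and grouped, and r is given as a description.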

How the data were processed

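RNA of 7 tendon libraries was purified with Trizol and a Qiagen column and made into libraries with a TruSeq RNA kit, per the labels' protocols. The deposited files hold, per the file headers, an estimated count and a TPM (length-corrected abundance) for each of 103639 transcripts. The submitters' processing notes name kallisto, FastQC 0.11.4 and GRCh38, which is a human build, whereas the transcript IDs are those of mouse. Of the IDs, 101510 matched GENCODE M21 (GRCm38) without their version, and gene positions come from it. Estimated counts deposited by the authors were summed per gene and rounded. TPM deposited by the authors were summed per gene.

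Features were filtered with filterByExpr (minimum count 10) and scaled by TMM (trimmed mean of M values). CPM use these scaled library totals. The test was the quasi-likelihood test of edgeR 4.0.16 in R 4.3.3, with 3 group means in 1 fit. P-values were adjusted by Benjamini-Hochberg over all 16028 features, with a threshold of 0.05. SE is the log2 fold change divided by the square root of F. A prior count of 2 was used for log2 CPM. Alternatives were DESeq2 1.42.0, limma-voom (limma 3.58.1), other scalings, filters and libraries. Scripts were tested on simulated data.

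All 10 genes were named whatever their values. From each list of related genes, up to 3 rises and 3 falls were named, the largest among genes past the threshold with no overlap between groups. Other genes were named as substrates or regulators after their values were seen. The genes and lists were chosen with earlier results of these data known. Replicates were numbered in accession order, which pairs none. A result that needs a withheld item is not reported here.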

Additional observations from a re-analysis of the deposited data

How the results depend on the processing

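No paired analysis was possible because the labels give no replicate numbers that groups share. In cut against contralateral tendon, the count of 5 higher and 1 lower held under the other tools, scalings, filters and feature sets that kept all 7 libraries. A fit with the numbering series of the sample titles as a covariate kept all 7 too. Only tenotomy replicate 1 shares a series with the contralateral libraries, so the ratios of that fit rest on it alone. Those of Timp1 and Timp4 were 4.259 and -2.795. The fit of the groups compared, which leaves out the uninjured libraries, gave 2 lower. Leaving out 1 library gave 0 to 5 higher and 0 to 2 lower, with 0 when a tenotomy or contralateral library was missing from the fit of all groups. Adamts1 reversed to 0.079 with upper quartile scaling (which moved the median of all genes to 0.113), 0.002 with the stricter filter, 0.046 with length-scaled TPM and 0.026 (all libraries) or 0.028 (only the groups compared) without tenotomy replicate 1, its range over left-out libraries being -0.105 to 0.028. Against uninjured tendon, leaving out 1 library gave 0 to 6 higher and 0 to 1 lower at the cut. The numbering series in the sample titles, as a covariate, reversed Timp3 (0.079), Timp4 (0.231), Adamts2 (-0.009) and Adamts5 (-0.027). Tenotomy replicate 2 and uninjured replicate 1 are the only libraries of these groups that share a series, so those ratios set 1 library against 1. Leaving out uninjured replicate 2 reversed the same genes (0.064, 0.321, -0.014 and -0.025), and leaving out replicate 1 reversed Adamts1 (-0.112). The opposite extremes over left-out libraries were -0.467 for Timp3, -2.652 for Timp4, 0.898 for Adamts2, 0.102 for Adamts5 and 0.551 for Adamts1. In contralateral against uninjured tendon, DESeq2 called 1 lower, no filter 2 lower, the series covariate 1 higher and 3 lower, and leaving out 1 library 0 to 3 higher and 0 to 5 lower. Adamts14 reversed with the covariate (-0.246) and without uninjured replicate 2 (-0.479), and Timp3 (-0.027) and Adamts1 (-0.083) without replicate 1, with opposite extremes over left-out libraries of 1.193, 0.508 and 0.585 for these 3 genes. The cause of these changes was not tested. Counts of 3 to 13 limit Timp1 and Adamts4 in contralateral tendon.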
